A study of Mus musculus with 4 samples.

Results

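The genes described here encode proteins of elastic fibres and of the matrix around arteries. The set holds 8 of the 46517 gene identifiers in the count tables: *Eln*, *Fbln5*, *Fbln2*, *Fbn1*, *Ltbp4*, *Mgp*, *Bgn* and *Fn1*. They were taken by name, and none of them was used to sort wells into vessel classes. By score classes, *Fbln5* had its highest level in artery-like endothelial wells and *Bgn* its lowest, and on each of the 4 plates the artery-like mean lay outside the range of the capillary-like and vein-like means. Neither difference passed the main test (edgeR adjusted p = 0.888 for both), which called 0% of genes in this comparison, while a second test, DESeq2, called both. *Fbln5* turned direction with unsupervised clusters, where 8 of 18 and 6 of 34 wells of the artery cluster were artery-like by score in replicates 1 and 2. *Bgn* was near no difference (log2 fold change 0.05) with a limit of 10 CPM on excluded genes, which left 2 artery-like wells in replicate 1. *Fbn1* was detected in more vein-like than artery-like or capillary-like wells, while *Ltbp4* was abundant in all endothelial classes. *Mgp* was highest in wells that also held transcripts of mural cells, the pericytes and smooth muscle cells around vessels. *Bgn* was high there too, but in replicate 1 vein-like wells held about as much (760 against 774 CPM). With 2 replicates, *Mgp* in mural-mixed wells was the only difference among the 8 genes that passed the main test. It did not pass without wells that carried fibroblast markers (log2 fold change 1.06 in place of 3.11, edgeR adjusted p = 0.861). That choice left 50 of 407 and 11 of 53 mural-mixed wells in replicates 1 and 2, which held 533 and 8.34 CPM of *Mgp*.

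An elastic fibre has a core of crosslinked elastin laid down on a scaffold of fibrillin microfibrils. Fibulins and latent TGF-β binding proteins bring the elastin precursor to the scaffold, and lysyl oxidases crosslink it. In arteries, elastic layers let the wall recoil after each heartbeat, and most of their elastin is made by smooth muscle cells, with the endothelium lying on the innermost layer.

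Blood vascular endothelial cells (BECs) were sorted as CD31+/CD45-/Lyve1- cells from the ear dermis of wild-type female C57Bl/6 mice. Their libraries were made with Smart-seq2, which places each sorted cell in its own well and marks no molecules. The labels call the mice adult and give 12 to 26 weeks, and the methods of the study give a younger range. No treatment or genotype was compared, so the only groups are the classes of wells made from the data. The design notes name pools of 6 mice and the labels 2 replicates of 2 plates (1A, 1B, 2A and 2B), but they do not say whether the replicates came from separate pools, so that p-values measure only the spread between these samples.

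Levels are in CPM, the count of a gene divided by the total count of its well and scaled to the same total in every well. Of 1536 wells, 1347 passed limits on reads, genes and endothelial transcripts. Endothelial wells had under 100 CPM of each of the lymphatic genes *Lyve1* and *Prox1*, the leukocyte gene *Ptprc* and the mural genes *Pdgfrb* and *Kcnj8*. These 701 wells, 338 of replicate 1 and 363 of replicate 2, were given a class by the mean standardised level of 10 artery, 10 capillary or 10 vein markers. The class with the highest score had to lead the next by 0.25. This left 114 artery-like wells (54 and 60 in replicates 1 and 2), 170 capillary-like wells (109 and 61), 129 vein-like wells (62 and 67) and 288 wells with no class. A class of this kind is a range of a score rather than a cell type, and 159 endothelial wells had a lead between 0.15 and 0.35. In the artery-like wells the median artery score was 0.51 and 0.56 in the 2 replicates, against -0.38 and -0.13 for the capillary score and -0.23 and -0.17 for the vein score. A further 460 wells (407 and 53) held at least 100 CPM of *Pdgfrb* or *Kcnj8* beside endothelial transcripts and are called mural-mixed, since whether they held more than 1 cell or free RNA cannot be told apart.

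The replicates differed in depth, with medians of 161838.5 and 41219.5 reads over all wells, and less so within the endothelial classes: 139160.5 and 116011.5 reads in artery-like, 135783 and 104536 in capillary-like and 187671 and 100042 in vein-like wells. The mural-mixed medians were 184003 and 50868 reads. In replicate 1 nearly every well held some reads of *Mgp* and *Bgn*, 97.9% and 97.0% of endothelial wells against 46.0% and 49.0% in replicate 2. A well was therefore counted as expressing a gene at 100 CPM or more, and exact 95% binomial intervals are given for such shares, which cover counting error only. Markers of fibroblasts, which make much of the dermal matrix, reached 100 CPM in 3 of 54 and 5 of 60 artery-like wells, 18 of 109 and 14 of 61 capillary-like wells, 8 of 62 and 12 of 67 vein-like wells, and 357 of 407 and 42 of 53 mural-mixed wells. The 7 lymphatic markers summed to a mean of 2944 CPM in vein-like wells of replicate 2, with a median of 42.1. No wells shared a name or the same totals between plates.

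*Fbln5* and *Bgn* lie at opposite ends of the artery-like comparison, so the sequences upstream of their starts are shown. The 250 bases before the RefSeq start (GRCm38.p6) were read for 5 of the 8 genes, *Fbln5*, *Fbln2*, *Ltbp4*, *Fbn1* and *Bgn*, and searched on both strands for GGGCGG (a GC box), TATAAA (the basal promoter element), TGAGTCA (AP-1), CAGACA (a SMAD half-site) and TGGGAA (the core of an RBPJ site). The *Fbln5* window is chr12:101819120-101819369 on the minus strand and that of *Bgn* is chrX:73483351-73483600 on the plus strand, both outside the GENCODE exons, written 5′ to 3′ with the matches in capitals.
*Fbln5*: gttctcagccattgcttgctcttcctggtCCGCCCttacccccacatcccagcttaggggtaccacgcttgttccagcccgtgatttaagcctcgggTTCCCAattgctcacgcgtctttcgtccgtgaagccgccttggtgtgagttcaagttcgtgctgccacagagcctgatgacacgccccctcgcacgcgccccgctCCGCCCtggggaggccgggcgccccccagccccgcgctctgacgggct
*Bgn*: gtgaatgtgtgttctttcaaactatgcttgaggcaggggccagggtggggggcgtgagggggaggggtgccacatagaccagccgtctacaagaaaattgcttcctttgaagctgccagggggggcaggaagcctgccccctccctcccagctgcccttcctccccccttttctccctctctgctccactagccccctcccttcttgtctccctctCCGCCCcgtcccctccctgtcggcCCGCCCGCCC

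By the GENCODE coordinates, the *Fbln2* and *Fbn1* windows lay inside the gene and that of *Ltbp4* partly inside it. All 5 windows held a GC box, which 32.7% of the 32851 RefSeq windows of this length hold. The *Fbln5* window held 2 and that of *Bgn* 3, of which the last 2 overlap. *Fbln5* and *Fbn1* also held 1 TGGGAA each, found in 21.6% of all windows. None of the 5 windows held the basal element, the AP-1 site or the SMAD sequence, found in 12.4%, 4.46% and 17.1% of all windows. The *Fbln5* window was 65.2% G and C and that of *Bgn* 64.4%, against a median of 52.4%. The windows were not tested against the levels.

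*Eln* (ENSMUSG00000029675, GRCm38 chromosome 5, 134702593 to 134747323, minus strand) encodes tropoelastin, the precursor of the elastic core. Its mean level per artery-like well was 256, 167, 436 and 383 CPM on plates 1A, 1B, 2A and 2B. Capillary-like wells held 121, 91.6, 215 and 514 CPM and vein-like wells 280, 396, 223 and 399 CPM. The 3 endothelial classes overlapped, with the lowest means on the capillary-like plates of replicate 1. More of the artery-like and vein-like wells carried the transcript at 100 CPM: 38.9% (95% interval 25.9 to 53.1) and 46.7% (33.7 to 60.004) of artery-like wells in replicates 1 and 2, and 51.6% (38.6 to 64.5) and 43.3% (31.2 to 56.0) of vein-like wells. The capillary-like shares were 23.9% (16.2 to 33.0) and 14.8% (6.98 to 26.2), below both other classes in either replicate, although its interval in replicate 1 overlapped the artery-like one. A single capillary-like well of replicate 2 at 12735 CPM gave 55.4% of that class mean, which was 171 CPM without it. Mural-mixed wells held 158, 113, 10.9 and 306 CPM, which overlapped the endothelial classes. One well at 7091 CPM gave 80.2% of the mural-mixed mean of replicate 2, which was 33.7 CPM without it, and 11.3% (4.27 to 23.0) of these wells reached 100 CPM, below the artery-like and vein-like intervals. The deposited counts are not stated to use strand, and *Eln* overlaps the antisense gene *Gm30003*, whose reads cannot be told apart from its own.

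*Fbln5* (ENSMUSG00000021186, chromosome 12, 101746565 to 101819055, minus strand) encodes fibulin-5, which binds tropoelastin and cells and is needed to assemble elastic fibres. In artery-like wells it reached 261, 425, 345 and 413 CPM on the 4 plates. Capillary-like wells held 63.3, 75.1, 58.1 and 11.9 CPM, and vein-like wells 177, 172, 45.3 and 72.2 CPM. The lowest artery-like plate lay above the highest of the other 8, and vein-like wells of replicate 1 came next. The mean of the 2 replicates was 365 ± 25.8 CPM (SD, n = 2) in artery-like, 51.5 ± 26.0 CPM in capillary-like and 115 ± 84.0 CPM in vein-like wells. Artery-like and capillary-like levels differed by more than their spread, and capillary-like and vein-like levels did not.

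The artery-like level of *Fbln5* came from a minority of wells. At 100 CPM or more, 25.9% (14.96 to 39.7) and 23.3% (13.4 to 36.0) of artery-like wells carried it in replicates 1 and 2, against 8.26% (3.85 to 15.1) and 8.20% (2.72 to 18.1) of capillary-like wells, with intervals that overlapped. Vein-like wells split by replicate, with 33.9% (22.3 to 47.0) and 7.46% (2.47 to 16.6). In replicate 1 the vein-like share was thus above the artery-like one, while fewer vein-like wells held high levels. Levels of 1000 CPM or more were found in 5 of 54 and 7 of 60 artery-like wells, in 3 of 109 and 0 of 61 capillary-like wells and in 0 of 62 and 1 of 67 vein-like wells. The median among artery-like wells at 100 CPM or more was 751 and 1128 CPM, and among vein-like ones 479 and 794 CPM. After thinning to 20000 reads, which left out 2 of 60 artery-like, 13 of 61 capillary-like and 8 of 67 vein-like wells of replicate 2 as too shallow, a read was found in 35.2% and 27.6% of artery-like, 20.2% and 12.5% of capillary-like and 51.6% and 11.9% of vein-like wells. Without wells that carried fibroblast markers the artery-like level was 366 and 401 CPM. Without its highest well it was 265 and 317 CPM, still above the other endothelial classes in both replicates.

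*Fbln2* (ENSMUSG00000064080, chromosome 6, 91212455 to 91272540, plus strand) encodes fibulin-2, a partner of fibronectin and elastin in basement membranes and elastic fibres. Artery-like wells held 448, 784, 334 and 268 CPM on the 4 plates, capillary-like wells 705, 777, 34.7 and 142 CPM, and vein-like wells 409, 796, 196 and 335 CPM. Here the replicates differed more than the classes. Of capillary-like wells, 68.8% (59.2 to 77.3) carried it at 100 CPM in replicate 1 and 6.56% (1.82 to 15.9) in replicate 2. Artery-like shares were 46.3% and 31.7% and vein-like shares 66.1% and 32.8%, lower in replicate 2 in each class. One well of 4213 CPM made up 74.4% of the capillary-like mean of replicate 2, 92.9 CPM, which was 24.2 CPM without it. In mural-mixed wells the level was 323, 296, 17.6 and 106 CPM, below the artery-like plate of the same number in each case.

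**Figure D1:**
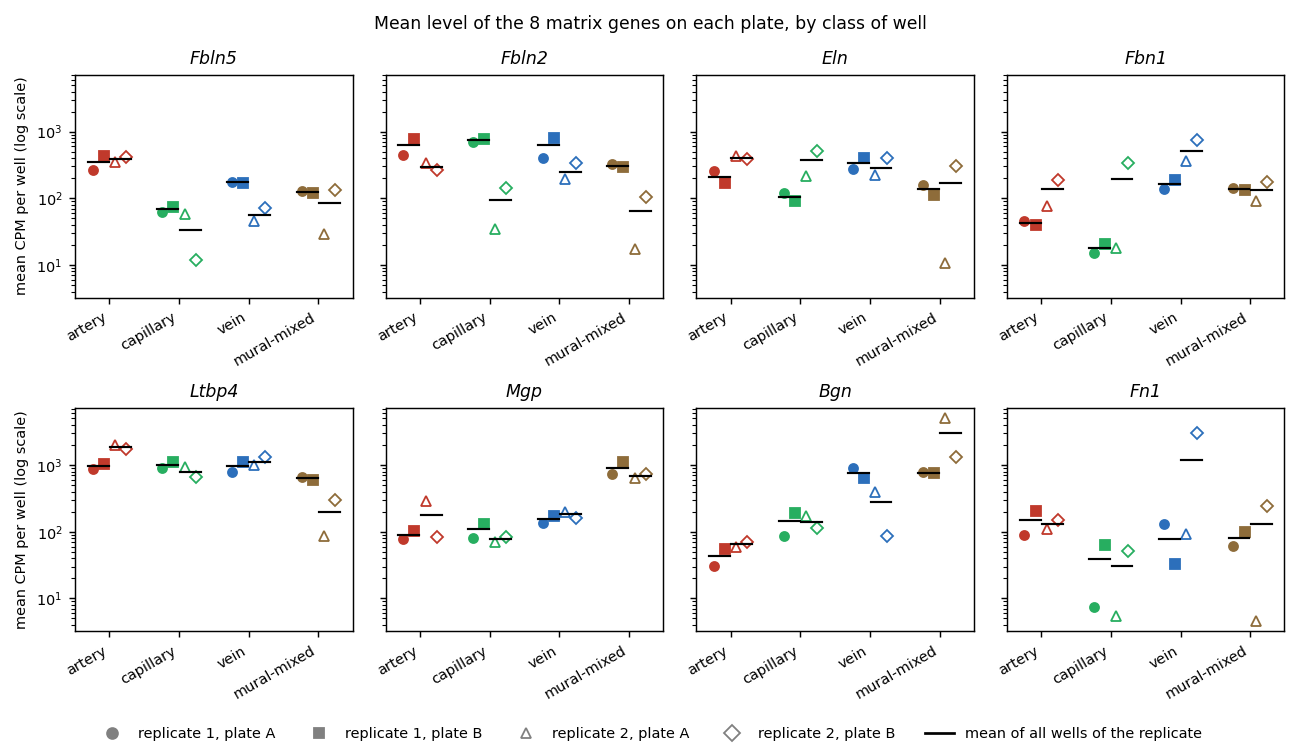
Mean level of the 8 genes per well (CPM, log scale) on each plate, by class of well; filled symbols are replicate 1, open symbols replicate 2, and bars the mean over all wells of a replicate. Artery-like *Fbln5* sits between 261 and 425 CPM and artery-like *Bgn* between 30.3 and 71.3 CPM, outside the range of the capillary-like and vein-like plates, and mural-mixed *Mgp* sits between 634 and 1116 CPM.

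*Fbn1* (ENSMUSG00000027204, chromosome 2, 125300594 to 125507993, minus strand) encodes fibrillin-1, the main protein of the microfibril scaffold. Vein-like wells held 137, 189, 358 and 755 CPM on the 4 plates. Artery-like wells held 46.4, 39.2, 76.5 and 186 CPM, and capillary-like wells 15.1, 20.6, 18.1 and 339 CPM. On each plate the vein-like mean was the highest of the 3, although the last capillary-like and artery-like plates reached into the vein-like range. In replicate 2 a single vein-like well at 11726 CPM gave 34.6% of the class mean, which was 336 CPM without it, so that the order on plate 2B, which held it, depends on this well. That capillary-like plate rested on few wells: the 2 highest of replicate 2, at 5854 and 4903 CPM, were followed by none above 1000 CPM.

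The share of wells gave a clearer order for *Fbn1*. At 100 CPM or more it was found in 37.1% (25.2 to 50.3) and 40.3% (28.5 to 53.0) of vein-like wells in replicates 1 and 2. The artery-like shares were 13.0% (5.37 to 24.9) and 15% (7.10 to 26.6), and those of capillary-like wells 3.67% (1.01 to 9.13) and 6.56% (1.82 to 15.9). The vein-like intervals did not overlap those of the other endothelial classes in either replicate. After thinning to 20000 reads the vein-like shares with a read were 53.2% and 52.5%, the artery-like 22.2% and 22.4% and the capillary-like 8.26% and 8.33%, in the same order at equal depth. Fibroblast markers summed to a mean of 2086 CPM in vein-like wells of replicate 2, with a median of 15.8 CPM. Without wells that carried them, *Fbn1* was at 181 and 505 CPM in vein-like wells, against 166 and 506 CPM with them. Mural-mixed wells held 145, 134, 90.9 and 175 CPM, and 35.4% and 35.8% of them reached 100 CPM. An antisense gene, *Gm9913*, overlaps *Fbn1*, and without strand their reads cannot be told apart.

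*Ltbp4* (ENSMUSG00000040488, chromosome 7, 27305136 to 27337692, minus strand) encodes a latent TGF-β binding protein that works with fibulin-5 in elastic fibre assembly. It had the highest level of the 8 per kilobase of exon in each endothelial class and was the most widely found, at 100 CPM or more in 89.6% and 73.6% of them. Artery-like wells held 865, 1035, 1993 and 1733 CPM, capillary-like wells 893, 1103, 921 and 667 CPM and vein-like wells 786, 1109, 1008 and 1302 CPM. The classes overlapped in replicate 1, and in replicate 2 both artery-like plates were the highest. Mural-mixed wells held 658, 606, 86.3 and 296 CPM, below every endothelial class on each plate. Among the 11 mural-mixed wells of replicate 2 without fibroblast markers the mean was 161 CPM, and among the 50 of replicate 1 it was 800 CPM.

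*Mgp* (ENSMUSG00000030218, chromosome 6, 136872435 to 136875823, minus strand) encodes matrix Gla protein, which keeps artery walls and cartilage from calcifying and binds bone morphogenetic proteins. Mural-mixed wells held 726, 1116, 634 and 727 CPM on the 4 plates. Artery-like wells held 76.7, 101, 294 and 84.9 CPM, capillary-like wells 81.0, 130, 70.2 and 84.3 CPM and vein-like wells 134, 173, 198 and 161 CPM. No endothelial plate reached the mural-mixed range. The artery-like plates overlapped both other endothelial classes, while the highest capillary-like plate lay just below the lowest vein-like one. Most mural-mixed wells also carried fibroblast markers, and the 50 and 11 wells without them held 533 CPM of *Mgp* in replicate 1 and 8.34 CPM in replicate 2, the latter below the endothelial classes. Within the endothelium, 43.5% (31.0 to 56.7) and 17.9% (9.61 to 29.2) of vein-like wells carried it at 100 CPM, against 24.1% (13.5 to 37.6) and 13.3% (5.94 to 24.6) of artery-like and 19.3% (12.3 to 27.9) and 4.92% (1.03 to 13.7) of capillary-like wells. In mural-mixed wells the shares were 70.3% (65.6 to 74.7) and 47.2% (33.3 to 61.4). The artery-like plate at 294 CPM held a well of 4865 CPM, and without it the artery-like mean of replicate 2 was 99.5 CPM in place of 179 CPM. The authors counted reads at the same position once, which limits the count of a gene as short as *Mgp*, with 1187 bases of exon.

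*Bgn* (ENSMUSG00000031375, chromosome X, 73483602 to 73495933, plus strand) encodes biglycan, a small leucine-rich proteoglycan that binds collagen and microfibrils. Artery-like wells held 30.3, 54.2, 59.5 and 71.3 CPM on the 4 plates. Capillary-like wells held 87.0, 192, 172 and 112 CPM, and vein-like wells 911, 635, 394 and 85.9 CPM. The highest artery-like plate lay below the lowest of the other 8, and vein-like wells were the highest on 3 of 4 plates. As means of the 2 replicates these were 54.4 ± 16.4 CPM, 142 ± 4.42 CPM and 520 ± 340 CPM (SD, n = 2). The capillary-like and vein-like means were apart by slightly more than the vein-like SD, and on plate 2B the vein-like level was the lower. Mural-mixed wells held 779, 769, 5064 and 1306 CPM. The plate at 5064 CPM held a well of 78250 CPM, in which 617 of 7885 reads were of *Bgn*. Without it the mural-mixed level of replicate 2 was 1633 CPM in place of 3079 CPM.

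Wells at 100 CPM or more of *Bgn* were 5.56% (1.16 to 15.4) and 8.33% (2.76 to 18.4) of artery-like wells and 11.01% (5.82 to 18.4) and 18.03% (9.36 to 29.98) of capillary-like wells, with overlapping intervals. Vein-like shares were 58.1% (44.8 to 70.5) and 23.9% (14.3 to 35.9), and mural-mixed shares 73.5% (68.9 to 77.7) and 67.9% (53.7 to 80.1). The vein-like share of replicate 1 lay above both other endothelial classes, and in replicate 2 its interval overlapped both. Summed mural markers were also lowest in artery-like wells of both replicates. Their means were 768 and 355 CPM in artery-like, 1734 and 425 CPM in capillary-like and 1076 and 490 CPM in vein-like wells of the 2 replicates. Most of the capillary-like sum of replicate 1 was *Rgs5*, at 1330 CPM against 295 CPM in vein-like wells, while *Tagln* was at 69.1 against 504 CPM. All 10 mural markers had reads in these classes, except *Cspg4* in artery-like wells of replicate 2. Their part in the *Bgn* levels was not tested.

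*Fn1* (ENSMUSG00000026193, chromosome 1, 71585520 to 71653200, minus strand) encodes fibronectin, a glycoprotein meshwork on which other matrix proteins assemble. In artery-like wells it was at 89.9, 202, 109 and 152 CPM, and in capillary-like wells at 7.35, 63.5, 5.47 and 52.2 CPM. The lowest artery-like plate lay above the highest capillary-like one. Vein-like wells held 133, 33.1, 92.3 and 3007 CPM and overlapped both, with means that rested largely on single wells. In replicate 1 a well at 3523 CPM gave 72.7% of the vein-like mean, which was 21.7 CPM without it. The last plate held 1 well of 74623 CPM, with 292 of 3913 reads, which gave 94.4% of the vein-like mean of replicate 2, 1180 CPM. Without it that mean was 67.1 CPM. At 100 CPM or more, 16.7% (7.92 to 29.3) and 18.3% (9.52 to 30.4) of artery-like wells carried *Fn1*, against 3.67% (1.01 to 9.13) and 3.28% (0.3996 to 11.3) of capillary-like and 6.45% (1.79 to 15.7) and 7.46% (2.47 to 16.6) of vein-like wells. Artery-like shares were the highest in both replicates, with intervals that overlapped the other classes. Mural-mixed wells held 61.6, 99.8, 4.60 and 244 CPM. On the other strand *Fn1* overlaps *Apol7d*.

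**Figure D2:**
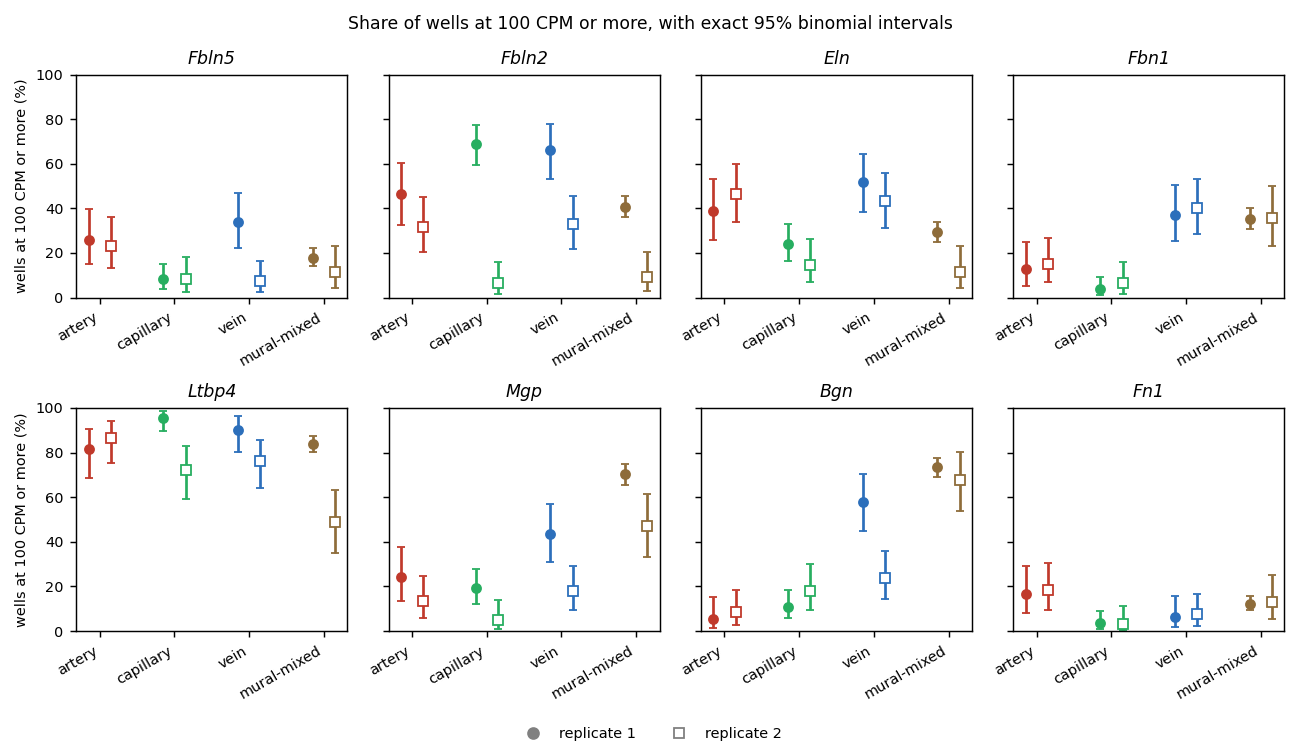
Share of wells at 100 CPM or more (%) for each gene and class; circles are replicate 1, squares replicate 2, and bars exact 95% binomial intervals. *Fbn1* is found in 37.1% and 40.3% of vein-like wells, above the artery-like and capillary-like shares, and *Ltbp4* is found in at least 72.1% of wells of every endothelial class.

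**Figure D3:**
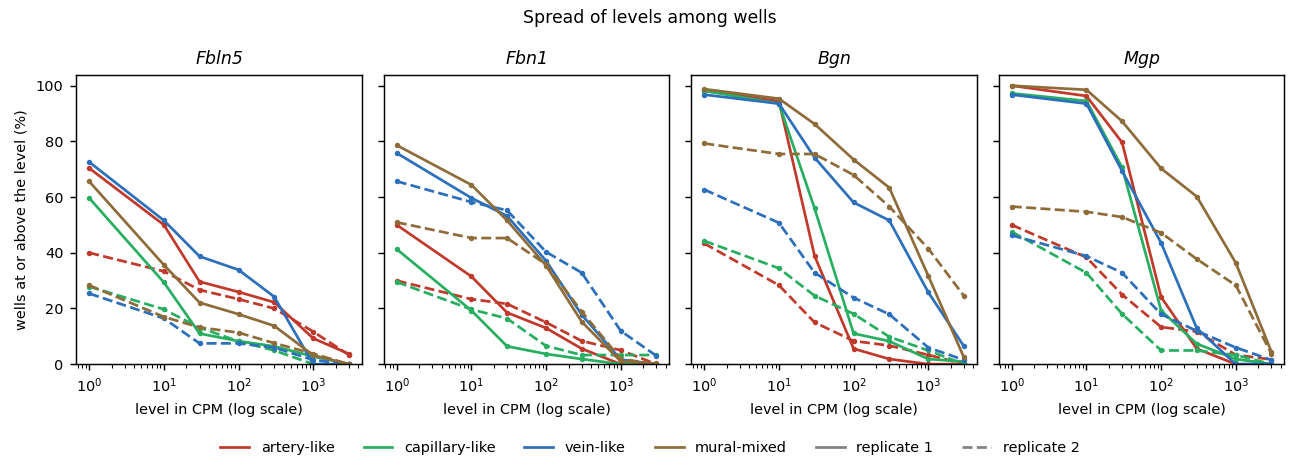
Percent of wells (vertical axis) at or above a level in CPM (horizontal axis, log scale) for 4 of the genes, by class (colour) and replicate (solid or dashed line). Curves of replicate 1 start higher for *Bgn* and *Mgp*, whose reads were in nearly all of its wells, and at 1000 CPM the artery-like curves of *Fbln5* lie above those of the other classes.

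Compared per kilobase of exon, *Ltbp4* came first in each endothelial class of both replicates. *Mgp* came next by the mean of the replicates, although *Fbln2* was above it in artery-like (97.7 against 75.2 CPM per kb) and capillary-like wells (117 against 91.5) of replicate 1, while *Bgn*, near the bottom in artery-like wells, came after these in vein-like wells with 85.2 CPM per kb. In artery-like wells the level was 217 ± 98.1 CPM per kb for *Ltbp4*, 113 ± 53.4 for *Mgp*, 72.2 ± 36.0 for *Fbln2*, 52.7 ± 3.74 for *Fbln5* and 38.1 ± 17.2 for *Eln* (SD over 2 replicates). *Fn1*, *Bgn* and *Fbn1* followed at 12.0 ± 0.928, 8.91 ± 2.70 and 7.39 ± 5.47 CPM per kb. Neighbours from *Mgp* to *Eln*, and *Bgn* and *Fbn1*, did not differ beyond their spread. In mural-mixed wells *Mgp* led with 673 ± 137 CPM per kb, ahead of *Bgn* with 316 ± 267 and *Ltbp4* with 64.2 ± 47.7.

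The question of arterial matrix expression was tested on counts summed per replicate and class, with artery-like sums set against the mean of capillary-like and vein-like sums. Summing gives deep wells more weight than the mean of CPM does. *Fbln5* was 4.25-fold higher in artery-like sums, a log2 fold change of 2.09 (SE 0.37), with 1.504 in replicate 1 and 2.64 in replicate 2. *Bgn* was lower by a log2 fold change of -3.10 (SE 0.56), or 8.56-fold, with -3.44 and -2.64. Neither passed the edgeR quasi-likelihood test after Benjamini-Hochberg adjustment over 17146 genes (adjusted p = 0.888 for both), although they stood 11th and 14th of all genes by unadjusted p (0.000743 and 0.000831). By this rule 0% of all genes were called, and 796 genes had an unadjusted p under 0.05. Markers used to set the classes did not pass either, such as *Bmx* and *Sema3g* (edgeR adjusted p = 0.677 and 0.888). DESeq2 called 359 genes, among them *Fbln5* (adjusted p = 0.00436) and *Bgn* (adjusted p = 0.000435). Of the 8 genes, 2 had an unadjusted p under 0.05 where 4.64% of all genes did, and DESeq2 called 2 where it called 2.54%. The remaining 6 had log2 fold changes from -0.13 (*Mgp*) to 0.63 (*Fn1*, SE 0.37, 0.61 and 0.65 in the replicates). The median of the 8 was 0.18, against -0.08 over all genes tested.

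Direction held for *Fbln5* and *Bgn* when either replicate or plate was used alone, and both lost it under another choice. With classes from unsupervised clusters in place of scores, *Fbln5* was at -2.07, though only 14 of the 52 wells in the artery cluster were artery-like by score. That cluster had 3 of 10 artery markers higher, and clusters left without a name had up to 4. With the excluded genes limited to 10 CPM, *Bgn* was at 0.05, near no difference. That limit left 2 artery-like, 4 capillary-like and 5 vein-like wells in replicate 1.

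Between capillary-like and vein-like sums, all 8 fitted values were lower in capillary-like wells, although *Fbln2* and *Ltbp4* were at 0.26 and 0.07 in replicate 1, with a median log2 fold change of -0.91 against 0.01 over all genes. *Fbn1* was lower by -3.32 (SE 0.55), a 10.0-fold difference, with -2.90 and -3.76 in the replicates. It was 12th of 17146 genes by p (unadjusted p = 0.000441, edgeR adjusted p = 0.630) and was called by DESeq2 (adjusted p = 4.7e-05). Without wells carrying fibroblast markers the value was -4.41, and without wells carrying lymphatic markers -3.59. *Fbln5* (-1.45, SE 0.45), *Eln* (-1.42, SE 0.43) and *Bgn* (-1.56, SE 0.56) followed with unadjusted p of 0.0144, 0.0120 and 0.0268, each lower in both replicates, and none was called by edgeR or DESeq2. *Fbln2*, *Ltbp4*, *Mgp* and *Fn1* lay between -0.39 and -0.17, with SE from 0.36 to 0.43. Thus 4 of 8 genes had an unadjusted p under 0.05 and 1 was called by DESeq2, where 4.43% and 2.14% of all genes did. The edgeR test called 0% of genes here, with 759 under an unadjusted p of 0.05 and 296 called by DESeq2.

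Mural-mixed sums were set against the mean of the 3 endothelial classes. *Mgp* was 8.62-fold higher, a log2 fold change of 3.11 (SE 0.27), with 2.77 and 3.43 in the replicates. It passed the edgeR test (adjusted p = 0.0335) and ranked 2nd of all genes, behind *Serping1*. *Bgn* was higher by a similar amount (3.17, SE 0.43), with 2.01 and 4.02, and missed the threshold (edgeR adjusted p = 0.0585), though it passed in limma (adjusted p = 0.0395). DESeq2 called both (adjusted p = 9.73e-10 and 1.09e-05). *Fbn1* stood at 1.02 (SE 0.39), while *Ltbp4* (-1.39, SE 0.38) and *Fbln2* (-1.20, SE 0.36) were lower, with unadjusted p of 0.0340, 0.00734 and 0.0115 and adjusted p of 0.487, 0.248 and 0.305 in edgeR. *Fbln5*, *Eln* and *Fn1* lay between -0.28 and 0.14. Of the 8, 1 was called where edgeR called 0.117% of all genes (20, all higher), 5 had an unadjusted p under 0.05 where 8.7% did, and DESeq2 called 2 where it called 4.9%.

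Mural-mixed wells also carried fibroblast transcripts, with summed markers of 1729 and 2057 CPM in the 2 replicates against 142 to 2086 CPM in the endothelial classes. All 6 markers, *Col1a1*, *Col1a2*, *Col3a1*, *Dcn*, *Lum* and *Pdgfra*, had reads in every class. Without wells that reached 100 CPM of any, 50 and 11 mural-mixed wells were left, *Mgp* there was at 533 and 8.34 CPM and its log2 fold change was 1.06 (edgeR adjusted p = 0.861). *Bgn* was at 220 and 1154 CPM with a log2 fold change of 3.55 (adjusted p = 0.0358), and *Fbn1* turned to -1.002. The call for *Mgp* therefore did not hold without the fibroblast-marked wells, while *Bgn* passed the threshold there. Against vein-like wells without these markers, however, mural-mixed *Bgn* was lower in replicate 1 (220 against 822 CPM) and higher in replicate 2 (1154 against 244 CPM). *Mgp* also missed the threshold when the excluded genes were limited at 300 CPM, with a class margin of 0.5 and on plate A alone, with log2 fold changes of 3.13, 3.44 and 2.86.

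**Figure D4:**
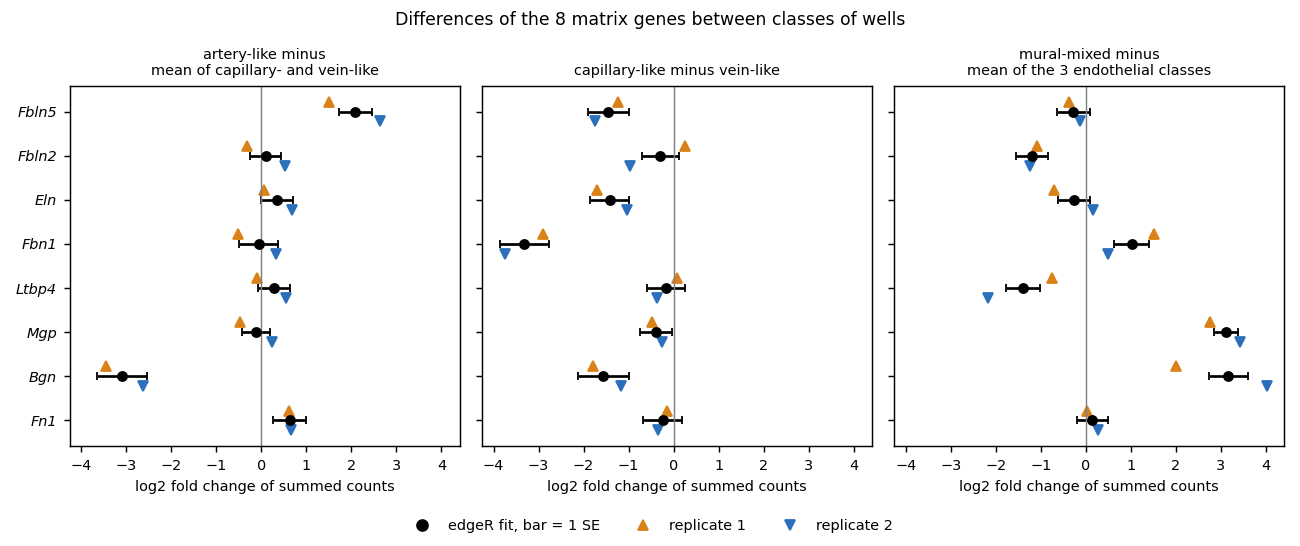
Log2 fold change of summed counts for each gene in the 3 comparisons; black points with bars are the edgeR fit with 1 SE, triangles the values within replicates 1 and 2. *Fbln5* (2.09) and *Bgn* (-3.10) stand out for artery-like wells, *Fbn1* (-3.32) between capillary-like and vein-like wells, and *Mgp* (3.11) and *Bgn* (3.17) for mural-mixed wells.

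Other genes of elastic fibres were taken from a list of 33 that includes *Eln*, *Fbln5*, *Fbln2*, *Fbn1* and *Ltbp4*, of which 32 were tested. In artery-like wells 0 passed the edgeR test. At an unadjusted p under 0.05, 1 was higher (*Fbln5*) and 5 were lower, and DESeq2 called 1 higher and 4 lower, where 4.64% and 2.54% of all genes passed. Those 4, chosen after their values were seen, were *Efemp1* (fibulin-3, -3.78), *Ltbp1* (a TGF-β binding protein, -2.76), *Emilin1* (a glycoprotein at the elastin surface, -4.11) and the crosslinking enzyme gene *Loxl1* (-3.48). The list median was -1.05 against -0.08 over all genes, and 11 of 32 were higher. *Fbln5* thus stood against the direction of most of its list. Fibroblast markers had a median of -2.10 in the same comparison and all 6 were lower, and their part in the list was not tested.

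Between capillary-like and vein-like wells the list median was -0.76, against 0.01 over all genes, with 0 edgeR calls and 5 genes, all lower, under an unadjusted p of 0.05, where 4.43% of all genes were. DESeq2, which called 2.14% of all genes, called *Fbn1*, *Emilin2* (-7.05) and *Loxl4* (-6.02), all lower in capillary-like wells, the latter pair chosen after their values were seen. In mural-mixed wells the median was 1.48, against 0.03 over all genes, and 24 of 32 were higher. None passed the edgeR test, 10 were higher and 3 lower at an unadjusted p under 0.05, and DESeq2 called 8 higher, where 8.7% and 4.9% of all genes passed. Among these were *Efemp2* (fibulin-4, which brings lysyl oxidase to elastin, 4.18), *Loxl2* (4.51), *Ltbp1* (3.15) and *Vtn* (vitronectin, 5.73), again chosen after their values were seen. Fibroblast markers had a median of 2.08 in the mural-mixed comparison and all 6 were higher. Their part in this list and in the next was not tested.

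Of 32 proteoglycan and other matrix genes, a list that holds *Bgn*, *Mgp* and *Fn1*, 27 were tested. In artery-like wells the median was -1.36, against -0.08 over all genes, and 5 were higher, with 0 edgeR calls, and DESeq2 called *Bgn*, *Prelp* (a leucine-rich proteoglycan of basement membranes, -4.67) and *Comp* (-5.92) lower, where it called 2.54% of all genes. In capillary-like against vein-like wells the median was -0.39, against 0.01 over all genes, with 0 calls by either tool and 2 genes under an unadjusted p of 0.05, where 4.43% of all genes were under it and DESeq2 called 2.14%. In mural-mixed wells the median was 1.77, 22 were higher, *Mgp* alone passed the edgeR test, and DESeq2 called 8 higher, where 0.117% and 4.9% of all genes were called and the median over all genes was 0.03. *Postn* (periostin, 7.16), *Podn* (6.11) and *Aspn* (asporin, 6.12) had adjusted p of 0.0695, 0.0854 and 0.0855 in edgeR. These names were also chosen after their values were seen.

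The number of the 8 genes found in the same well differed by class and replicate. At 100 CPM or more, 39 of 54 and 41 of 60 artery-like wells carried at least 2 of them, as did 87 of 109 and 22 of 61 capillary-like, 56 of 62 and 51 of 67 vein-like and 386 of 407 and 39 of 53 mural-mixed wells. The median number was 2 in artery-like wells of both replicates, 4 and 2 in vein-like, 2 and 1 in capillary-like and 4 and 2 in mural-mixed wells. These counts include *Ltbp4*, found in most endothelial wells.

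Across endothelial wells no pair of the 8 genes had a Spearman correlation above 0.26 in either replicate (338 and 363 wells, which share plates and depth), and in counts this sparse such values describe little. Among 7629 genes with a read in at least 10% of endothelial wells of each replicate, those whose levels were most like *Fbn1* were *Gm16548* (mean correlation 0.30), *Gm16587* (0.26) and *Selp* (0.26), the P-selectin gene that was among the vein markers. *Bgn* was most like *Mmp2* (0.24), *Selp* (0.22) and *Gm16587* (0.21), and *Eln* most like *Lifr* (0.23), the vein marker *Vwf* (0.21) and *Cers4* (0.19). For *Fn1* the list was *Gja4* (0.19), an artery marker, *Fbln2* (0.17) and *Mob1b* (0.16). *Ltbp4* was nearest to *App* (0.26), *Bcam* (0.25) and *Heg1* (0.24), and *Fbln2* to *Fabp5* (0.28), *Fabp4* (0.24) and *Cadm3* (0.20). For *Fbln5*, *S100a4* (0.19), *Clu* (0.18) and *Uqcc2* (0.18) came first, with no artery marker among them. *Mgp* was nearest to *Serping1* (0.19), the collagen gene *Col3a1* (0.18) and the mural gene *Rgs5* (0.18).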

How the data were processed

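Smart-seq2 libraries of 4 plates were analysed. Single 50-bp reads had been aligned by the authors to mm10 (TopHat2 2.1.1), stripped of duplicates (SAMtools 0.1.18) and assigned to genes (Subread 1.4.6-p5). What they deposited is a table of unnormalised counts for each plate, genes by wells. The annotation release and strand setting are not given in the sources used here. Gene identifiers were matched to GENCODE vM21 (46005 of 46517), and 92 spike-ins were left out.

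Wells were kept with at least 600 counts, 500 to 8000 genes and reads of 2 or more of the genes *Kdr*, *Cdh5* and *Pecam1*, and under 100 CPM of *Lyve1*, *Prox1* and *Ptprc*. Doublets were not called apart from the gene limit. A well's score was the mean of log2(CPM + 1), standardised within a replicate, over a class's markers, and had to be above 0.

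Counts were summed into 8 sums (4 classes, 2 replicates). The test was edgeR 4.0.16 (quasi-likelihood after TMM scaling, 3 residual degrees of freedom) on genes reaching 10 counts in at least 2 sums, with adjusted p under 0.05 as the threshold. Replicate was a block because classes of a replicate share its mice, and deviations of same-replicate sums correlated at 0.0861 to 0.137. The code was tested on simulated data.

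Named genes are the 8, listed matrix genes past the threshold in both replicates' direction, and for each of the 8 the 3 most alike genes. Of the listed genes *Mgp* alone met this, and the other listed genes named were chosen after their values were seen. Members, lists and tests were chosen with earlier results of these data known. Alternatives were DESeq2 1.42.0, limma 3.58.1 (pseudocount 1), other limits, margins, clusters (leidenalg 0.10.2), depth and plates. R 4.3.3 and Python 3.11.15 were used.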

Additional observations from a re-analysis of the deposited data

Results flagged for a closer look

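In each gene and class the means of the 4 plates were compared, and a plate was picked out where its gap to the nearest other plate, divided by the whole range, was above Dixon's 95% critical value for 4 values. This was the case in 5 of 32 groups. Chance picks out about 1 in 20 where plate means are normally spread, which was not checked. *Bgn* in mural-mixed wells was at 5064 CPM on plate A of replicate 2, against 769 to 1306 CPM on the other plates. *Fbln5* in mural-mixed wells was at 29.2 CPM on the same plate, against 122 to 134 CPM. *Fbn1* in capillary-like wells was at 339 CPM on plate B of replicate 2, against 15.1 to 20.6 CPM. *Fn1* in vein-like wells was at 3007 CPM on plate B of replicate 2, against 33.1 to 133 CPM. *Mgp* in artery-like wells was at 294 CPM on plate A of replicate 2, against 76.7 to 101 CPM. Single wells stood out on 4 of these plates: 78250 CPM for *Bgn*, 74623 CPM for *Fn1*, 4865 CPM for *Mgp*, and 5854 and 4903 CPM for *Fbn1*. All 5 plates belong to replicate 2, the one with fewer reads per well, and depth was not tested as their source.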

How the results depend on the processing

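Some results rest on few reads or few wells: both replicates give 3 residual degrees of freedom, replicate 2 has the lower depth, and single wells carry several means. The number of genes called (0, 0 and 20 for artery-like, capillary-like against vein-like, and mural-mixed wells) depended on the setting. DESeq2 called 359, 296 and 758. Without a filter on low counts there were 1, 7 and 226, and with a limit of 10 CPM 3, 5 and 42. Without the replicate block 1 and 136 were called in the latter pair, with a margin of 0 there were 1 and 76, with a margin of 0.5 1 and 12, and in thinned wells 3 and 227. Mural-mixed calls alone moved to 102 with limma, 0 at a limit of 300 CPM, 102 without fibroblast-marked wells, 83 with clusters, 8 and 3 on plates A and B alone, and 8 without wells carrying lymphatic markers (chosen after seeing the data, as was leaving out the top *Bgn* and *Fn1* wells). Counts without a replicate were not run, since no residual degrees of freedom were left.

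Among the members, *Mgp* in mural-mixed wells kept its direction and missed the threshold at 300 CPM (3.13), without fibroblast-marked wells (1.06), with a margin of 0.5 (3.44) and on plate A (2.86), with edgeR adjusted p of 0.0983, 0.861, 0.183 and 0.0629. Log2 fold changes that turned sign for artery-like wells were *Fbln5* -2.07, *Fbln2* -1.53, *Ltbp4* -0.36 and *Fn1* -0.080 with clusters. At a limit of 10 CPM *Mgp* was 0.65, *Ltbp4* -0.53, *Fbn1* 1.21 and *Bgn* 0.047, and at 300 CPM *Mgp* was 0.025. Without the replicate block *Fbln2* was -0.089 and *Fbn1* 0.094. With a margin of 0 *Eln* was -0.012 and *Fbn1* 0.35, and with 0.5 *Fbln2* was -0.13 and *Mgp* 0.34. On plate A *Mgp* was 0.50 and *Fbn1* 0.72, and on plate B *Fbln2* -0.33 and *Eln* -0.15. Without fibroblast-marked wells *Mgp* was 0.66 and *Fbn1* 0.63, without lymphatic-marked ones *Fbln2* -0.048 and *Fbn1* 0.11, and with limma *Mgp* was 0.020. For capillary-like against vein-like wells these were *Fbln2* 0.50 at 10 CPM and 0.0090 with a margin of 0.5, *Ltbp4* 0.21 with clusters, and *Fn1* 0.20 at 300 CPM, 2.33 with clusters, 0.21 with a margin of 0.5, 1.18 on plate B and 0.24 without lymphatic-marked wells. For mural-mixed wells they were *Fbln5* 1.04 at 10 CPM and 0.62 with clusters, *Eln* 0.26 with clusters and 0.020 on plate B, *Fbn1* -1.002 without fibroblast-marked wells, and *Fn1* -0.16 with limma, -0.025 at 300 CPM and -0.51 on plate A. In single replicates the sign also turned for artery-like wells, with *Fbln2* -0.33 and *Ltbp4* -0.089 in replicate 1 and *Mgp* 0.227 and *Fbn1* 0.325 in replicate 2. For capillary-like against vein-like wells it turned for *Fbln2* (0.26) and *Ltbp4* (0.068) in replicate 1. For mural-mixed wells it turned for *Eln* (0.149) in replicate 2. The cause of these turns was not tested. The block changed no call among the members except *Bgn* in mural-mixed wells, which passed without it (edgeR adjusted p = 0.0164). *Bgn* there also passed with DESeq2, limma, no filter, clusters, a margin of 0, thinned wells and without fibroblast-marked wells.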

Other observations

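Some wells held less than 100 CPM of *Pecam1* beside mural markers (*Pdgfrb* or *Kcnj8* at 300 CPM or more) or fibroblast markers (at least 3 at 100 CPM or more). A well could be counted in both kinds, and lymphatic and leukocyte genes were not limited. The 8 and 38 wells with mural markers had *Mgp* at 1045 and 1183 CPM, *Bgn* at 1103 and 2999 CPM, *Eln* at 221 and 215 CPM and *Fbln5* at 4.85 and 144 CPM in replicates 1 and 2. The 3 and 20 wells with fibroblast markers had *Mgp* at 1625 and 1111 CPM, *Bgn* at 1596 and 3064 CPM, *Fbn1* at 153 and 615 CPM and *Fbln5* at 4.72 and 194 CPM. Endothelial wells with no class held *Fbln5* at 159 and 89.5 CPM, below the artery-like level in both replicates.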
